A study of Bos taurus with 6 samples.

Results

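The Yippee-like genes form a small family of 5 genes, *YPEL1*, *YPEL2*, *YPEL3*, *YPEL4* and *YPEL5*, each listed once by its symbol among the 23475 genes of the deposited table. The family was chosen by the difference seen for *YPEL4*, which was lower with the *bta-miR-484* agomir in these same libraries, and the other 4 genes were added because they belong to the same family. The difference of *YPEL4* between the groups is therefore given as a description, without a test. To examine the family, RNA sequencing values were compared between bovine adipocytes transfected with the *bta-miR-484* agomir (3 libraries) and adipocytes transfected with the agomir NC (3 libraries), all collected 48 h after transfection. The agomir is a synthetic, stabilized copy of the miRNA that supplies cells with more of it, and the agomir NC is a control RNA of the same kind. The cells were primary cells from subcutaneous fat of calves, grown with fetal bovine serum. It is not stated whether libraries of 1 group stem from separate calves or separate cultures, so the p-values measure only the spread between these libraries, which may be technical.

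Each Yippee-like gene encodes a small protein made almost wholly of a zinc-binding Yippee domain, a fold conserved from yeast to mammals. *YPEL1*, *YPEL2*, *YPEL3* and *YPEL4* are close relatives in sequence, whereas *YPEL5* is a more distant and more ancient member that joins the CTLH complex, a ubiquitin ligase made of many subunits. *YPEL3* is known as a p53 target associated with growth arrest and senescence, and *YPEL1* was first described in connection with the shape of fibroblasts. The function of *YPEL2* and *YPEL4* is less well understood.

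The labels call the cells adipocytes, and the study's text uses both adipocytes and preadipocytes for transfected cells. The fibroblast and preadipocyte genes *COL1A1*, *PDGFRA* and *DCN* had means of 5852, 167 and 3114 FPKM with the agomir NC. FPKM is the number of sequenced fragments scaled for transcript length and for the fragments mapped in a library, so levels of different genes can be set side by side. *ADIPOQ*, the adiponectin gene of mature adipocytes, lay between 0.0763 and 0.197 FPKM over the 6 libraries, and *LEP* and *CIDEC* were listed at 0 in 4 of the 6. *PPARG*, the master regulator of fat cell formation, had a mean of 3.87 ± 0.157 FPKM after the agomir against 3.23 ± 0.237 FPKM after its control (SD, n = 3 each), groups that did not overlap. Of all genes tested, 10.9% were higher with groups that did not overlap. *FABP4*, a fatty acid carrier, had means of 1.90 ± 0.4 and 2.89 ± 0.679 FPKM (SD, n = 3 each), with overlapping groups. Of the 8 adipocyte genes 5 could be tested, and limma called 0 at an adjusted p under 0.05, with *PPARG* higher and *FABP4* lower at an unadjusted p under 0.05, lines that 0.00805% (adjusted), 6.63% (higher) and 4.31% (lower) of all 12422 genes tested passed. The 8 genes summed to 11.7 ± 0.493 against 11.6 ± 0.892 FPKM (SD, n = 3 each), *LPL* being the most abundant. *CEBPA* lay between 0.208 and 0.845 FPKM, with overlapping groups and means of 0.632 ± 0.212 and 0.4385 ± 0.256 FPKM (SD, n = 3 each, agomir first). Of the 5 tested, *FABP4* had a log2 fold change below 0 and 4 lay above, as did 6840 of all 12422 genes tested. Thus, *ADIPOQ*, *LEP* and *CIDEC* were at or close to 0. *PPARG*, *CEBPA*, *FABP4*, *LPL* and *PLIN1*, a lipid droplet protein gene at 0.974 to 1.56 FPKM, were present in every library.

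All 5 members were detected in every library, and they were spread over a wide range of levels. *YPEL5* was the highest, at 13.3 FPKM on average over the 6 libraries, above 64% of the 12422 genes that passed a mean of at least 0.5 FPKM. *YPEL3* followed at 10.1 FPKM, above 55.9% of those genes. The other members were scarce, with *YPEL2* at 1.91 FPKM, *YPEL4* at 1.25 FPKM and *YPEL1* at 0.797 FPKM. *YPEL1* stood above only 5.59% of the genes that passed. In the agomir NC libraries, *YPEL5* made up 45.6% ± 2.73 and *YPEL3* 38.3% ± 4.0 of the summed FPKM of the family (SD, n = 3 each). *YPEL2* gave 6.72% ± 0.642, *YPEL4* 5.87% ± 1.37 and *YPEL1* 3.50% ± 0.341 of that sum (SD, n = 3 each). Hence, the member that chose the family was a minor part of its summed level.

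Neighbours in the order of the members were compared within each library. *YPEL5* exceeded *YPEL3* in 6 of 6 libraries, by 0.39 ± 0.27 on the log2(FPKM + 0.5) scale (SD, n = 6). The gap between *YPEL3* and *YPEL2* was the widest, at 2.12 ± 0.22 on that scale (SD, n = 6), and was also in the same direction in 6 of 6 libraries. Both pairs gave p = 0.03125 in an exact two-sided permutation test of the signs, the smallest that 6 libraries allow. After Benjamini-Hochberg adjustment over all 4 neighbouring pairs, the exact permutation p was 0.0625 for both, which is above 0.05. The mean levels in these same libraries set which members are neighbours, so these p-values are no independent test of the order. For the pairs with *YPEL4* the values are a description, with *YPEL2* above *YPEL4* in 5 of 6 libraries and *YPEL4* above *YPEL1* in 5 of 6. The exceptions were agomir NC replicate 1, in which *YPEL4* at 1.90 FPKM lay above *YPEL2* at 1.81 FPKM, and agomir replicate 1, in which *YPEL4* at 0.731 FPKM lay below *YPEL1* at 0.882 FPKM. The position of *YPEL4* among the scarce members thus differed between libraries, while *YPEL5* and *YPEL3* were the highest members in all 6.

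**Figure D1:**
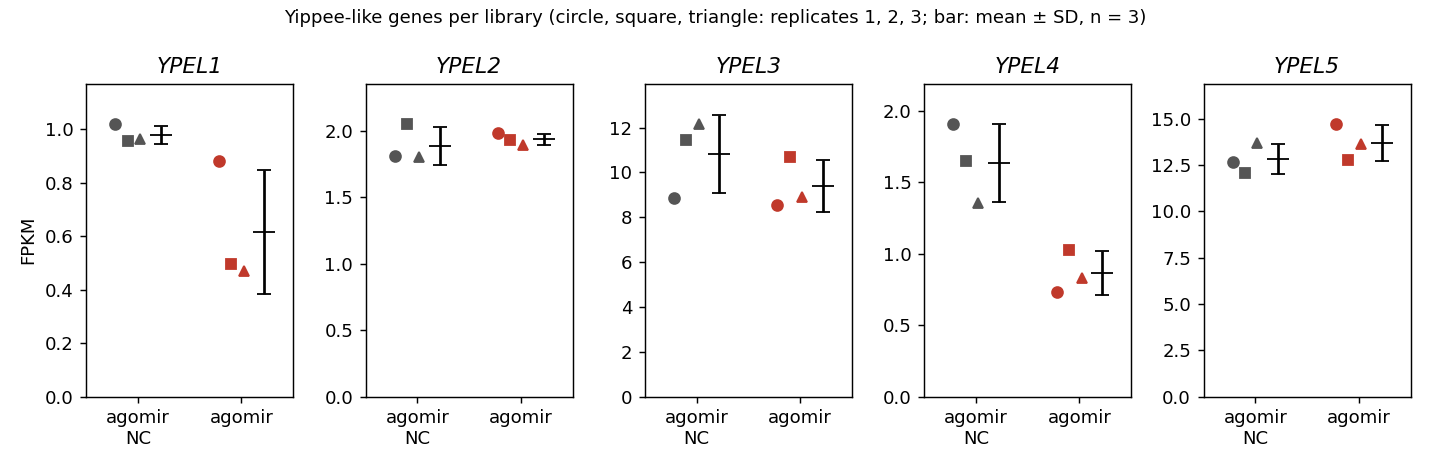
FPKM (vertical axis, from 0, its range set for each gene) of the 5 Yippee-like genes in the 3 agomir NC and 3 agomir libraries, with symbols for replicates 1, 2 and 3 and a bar for the mean ± SD. The agomir points of *YPEL4* (0.731 to 1.03 FPKM) and *YPEL1* (0.468 to 0.882 FPKM) lie below all agomir NC points, and the groups of *YPEL2*, *YPEL3* and *YPEL5* overlap.

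In agomir replicates 1, 2 and 3, *YPEL4* stood at 0.731, 1.03 and 0.830 FPKM. In agomir NC replicates 1, 2 and 3, it stood at 1.90, 1.65 and 1.35 FPKM. The groups did not overlap, with *YPEL4* lower in all agomir libraries, and the gap between the nearest of them, agomir replicate 2 and agomir NC replicate 3, was smaller than the range within the agomir NC group. In bulk RNA, fewer cells of a type and less RNA per cell cannot be told apart. The mean FPKM of the agomir group was 0.528 times that of the agomir NC group, and the share of *YPEL4* in the summed FPKM of the family was 3.26% ± 0.550 with the agomir (SD, n = 3) against the 5.87% given above. On the log2(FPKM + 0.5) scale, which understates changes of low genes, the difference was -0.65 (standard error 0.15). These values chose the family and support no further statement about it. Of all genes tested, 0.129% were lower with the agomir beyond the 0.05 line for an unadjusted p together with a 1.5-fold difference, and nothing is read from this share for *YPEL4*, since the comparison chose it. The spread of *YPEL4* between replicates was ordinary for its level, since its pooled SD within groups was 0.174 on the log2 scale, against a median of 0.175 over the 1000 genes nearest to it in mean.

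To see whether the rest of the family differed between the groups, the other 4 members were read from the limma fit across all 12422 genes. None of the 4 had a Benjamini-Hochberg adjusted p under 0.05, the line that 0.00805% of all genes tested passed. At an unadjusted p under 0.05, limma called 1 of the 4, *YPEL1*, lower with the agomir and none higher, where 4.31% of all genes were lower and 6.63% higher. Of all calls at that line, 60.6% were higher, a share that was 49.4% after median-ratio scaling. The median log2 fold change was -0.079 over these 4 members and 0.013 over all genes tested.

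*YPEL1*, the scarcest member, gave 0.882, 0.496 and 0.468 FPKM in agomir replicates 1, 2 and 3. The agomir NC replicates 1, 2 and 3 gave 1.02, 0.957 and 0.964 FPKM. All agomir libraries lay below all agomir NC libraries, as did those of 6.36% of all genes tested. Agomir replicate 1 stood close to the agomir NC group and apart from the other agomir libraries, which were at about the same level as each other. The mean FPKM was 0.615 ± 0.232 after the agomir and 0.980 ± 0.0331 after the control (SD, n = 3 each), a ratio of 0.628. Its log2 fold change came to -0.43 (standard error 0.17, 95% confidence interval -0.80 to -0.054), with limma's unadjusted p at 0.0290 and its adjusted p over all genes at 0.404. By exact permutation of the group labels (two-sided) *YPEL1* had p = 0.1, which is the lowest value possible with 3 libraries in each group. When 1 library was left out, limma's unadjusted p for *YPEL1* was 0.00411 without agomir replicate 1 and between 0.0559 and 0.0995 without each of the other 5. The difference of *YPEL1* did not pass the adjusted threshold, and leaving out any library except agomir replicate 1 ended its unadjusted call. Its log2 fold change then ranged from -0.59 without agomir replicate 1 to -0.33 without agomir replicate 3. It lay between -0.44 and -0.41 when an agomir NC library was left out, near the value with all 6 libraries.

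*YPEL3*, the p53 target of the family, gave 8.53, 10.7 and 8.89 FPKM in agomir replicates 1, 2 and 3. Its values in agomir NC replicates 1, 2 and 3 were 8.84, 11.5 and 12.1 FPKM. The groups overlapped, because agomir NC replicate 1 lay within the range of the agomir libraries. Mean FPKM was 9.38 ± 1.16 after the agomir and 10.8 ± 1.74 after the control (SD, n = 3 each), with a log2 fold change of -0.19 (standard error 0.12, 95% confidence interval -0.46 to 0.082, limma's adjusted p = 0.610). By exact permutation (two-sided, n = 3 each), p was 0.3. Its spread was wide for its level, with a pooled SD within groups of 0.202 on the log2 scale, more than 94.6% of the 1000 genes nearest to it in mean. The log2 fold change was -0.32 when agomir NC replicate 1 was left out, -0.28 when agomir replicate 2 was left out and -0.10 when agomir NC replicate 3 was left out. With the first and the second of these, limma's unadjusted p was 0.0120 and 0.0490, and its adjusted p for *YPEL3* lay between 0.296 and 0.846 over all alternatives. The difference of *YPEL3* with all 6 libraries was within the spread between replicates.

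*YPEL2* was the steadiest member, with 1.98, 1.93 and 1.90 FPKM in agomir replicates 1, 2 and 3 and 1.81, 2.05 and 1.80 FPKM in the same-numbered agomir NC replicates. The agomir libraries lay inside the range of the agomir NC libraries. Its pooled SD of 0.0620 on the log2 scale was larger than that of only 4.90% of the 1000 genes nearest to it in mean. The log2 fold change was 0.032 (standard error 0.10, limma's adjusted p = 0.942), and its 95% confidence interval from -0.20 to 0.27 holds differences in both directions. With 1 library left out, it ranged from 0.0071 without agomir NC replicate 3 to 0.081 without agomir NC replicate 2. By exact permutation (two-sided, n = 3 each), p was 0.6.

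*YPEL5*, the CTLH member, gave 14.7, 12.8 and 13.6 FPKM in agomir replicates 1, 2 and 3. The agomir NC libraries had 12.7, 12.1 and 13.7 FPKM in replicates 1, 2 and 3. The groups overlapped in part, with agomir replicate 1 above all agomir NC libraries and agomir NC replicates 1 and 2 below all agomir libraries. The mean FPKM was 13.7 ± 0.963 after the agomir and 12.8 ± 0.811 after the control (SD, n = 3 each). Its log2 fold change was 0.092 (standard error 0.072, 95% confidence interval -0.070 to 0.25, limma's adjusted p = 0.681). Leaving out agomir replicate 1 gave 0.042 and leaving out agomir replicate 2 gave 0.14, the ends of the range over single libraries left out. By exact permutation (two-sided, n = 3 each), p was 0.3. No member was higher in all agomir libraries than in all agomir NC libraries, as 10.9% of all genes tested were.

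The summed FPKM of the 5 genes was 26.5 ± 0.661 with the agomir and 28.1 ± 1.85 with the agomir NC (SD, n = 3 each), *YPEL4* included. *YPEL5* and *YPEL3* gave most of the sum in each group, but their means differed in opposite directions. With the agomir, *YPEL3* was at 9.38 against 10.8 FPKM and *YPEL5* at 13.7 against 12.8 FPKM. The lower means of *YPEL4* (0.863 against 1.635 FPKM) and *YPEL1* (0.615 against 0.980 FPKM) therefore weighed in the difference of the sum. Since *YPEL4* chose the family, that difference is a description.

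Subsequently, the genes of the CTLH complex, to which *YPEL5* belongs, were examined. All 10 subunit genes of the list were measured and passed the filter, and their summed FPKM was 132.6 ± 1.12 after the agomir and 128.8 ± 1.94 after the control (SD, n = 3 each). *MAEA*, which encodes a RING subunit of the ligase, was the most abundant, at 26.1 ± 2.12 against 24.1 ± 1.69 FPKM (SD, n = 3 each). None of the 10 had an adjusted p under 0.05 in limma, 1 was higher at an unadjusted p under 0.05, and none was lower, beside 6.63% higher and 4.31% lower over all genes tested. The median log2 fold change of the list was 0.061, against 0.013 over all genes tested.

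The CTLH gene with the unadjusted call was *ARMC8*, a scaffold subunit. *ARMC8* gave 7.44, 7.36 and 6.89 FPKM in agomir replicates 1, 2 and 3 and 4.69, 6.43 and 6.46 FPKM in the same-numbered agomir NC replicates. Its groups did not overlap, and agomir NC replicate 1 was the lowest by a wide margin. The log2 fold change was 0.29 (standard error 0.11, limma's unadjusted p = 0.0289, adjusted p = 0.403). *RANBP10*, a scaffold protein and paralog of *RANBP9*, also had groups that did not overlap, so that 2 of the 10 were higher in this way beside 10.9% of all genes, with a log2 fold change of 0.12 (standard error 0.063, limma's adjusted p = 0.534). *RMND5A*, the other RING subunit partner of *MAEA*, was at 17.9 ± 1.27 against 19.4 ± 0.626 FPKM (SD, n = 3 each), and its groups overlapped. *WDR26*, through which *YPEL5* is known to join the complex, averaged 22.1 ± 0.386 FPKM after the agomir and 21.9 ± 1.37 FPKM after the control (SD, n = 3 each), so its means differed by less than the spread within the agomir NC group. *GID8*, *GID4*, *RMND5B*, *RANBP9* and *MKLN1* had overlapping groups and log2 fold changes between -0.11 and 0.18. *MKLN1* varied most among them, from 9.57 to 14.9 FPKM within the agomir group.

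Proteins that share the tent-like fold of the Yippee domain formed another list. It holds *CRBN*, the cereblon subunit that binds thalidomide, the centromere factors *MIS18A* and *OIP5*, the methionine sulfoxide reductases *MSRB1*, *MSRB2* and *MSRB3*, the Rab-binding protein *RABIF*, and the RNA sensors *DDX58*, *IFIH1* and *DHX58*. All 10 were tested, and limma called 0 of them at an adjusted p under 0.05 and also 0 at an unadjusted p under 0.05, beside 0.00805% of all genes tested at the first line and 4.31% lower and 6.63% higher at the second. The median log2 fold change was -0.085, beside 0.013 over all genes tested. *RABIF* was the 1 gene of the 10 with groups that did not overlap, lower as in 6.36% of all genes, at 7.65 ± 0.473 FPKM with the agomir against 8.58 ± 0.789 FPKM after the control (SD, n = 3 each), and its log2 fold change was -0.15 (standard error 0.083, limma's adjusted p = 0.539). *MSRB2* had the lowest log2 fold change of the list, -0.23 (standard error 0.11), with overlapping groups. *OIP5* ranged from 2.49 to 5.74 FPKM within the agomir group alone, and *MIS18A* from 1.08 to 2.62 FPKM, so both varied more between agomir replicates than between groups. *CRBN* averaged 16.3 ± 1.17 FPKM after the agomir against 14.9 ± 1.53 FPKM after the control (SD, n = 3 each), with overlapping groups, and *MSRB1*, *MSRB3*, *DDX58*, *IFIH1* and *DHX58* overlapped as well.

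**Figure D2:**
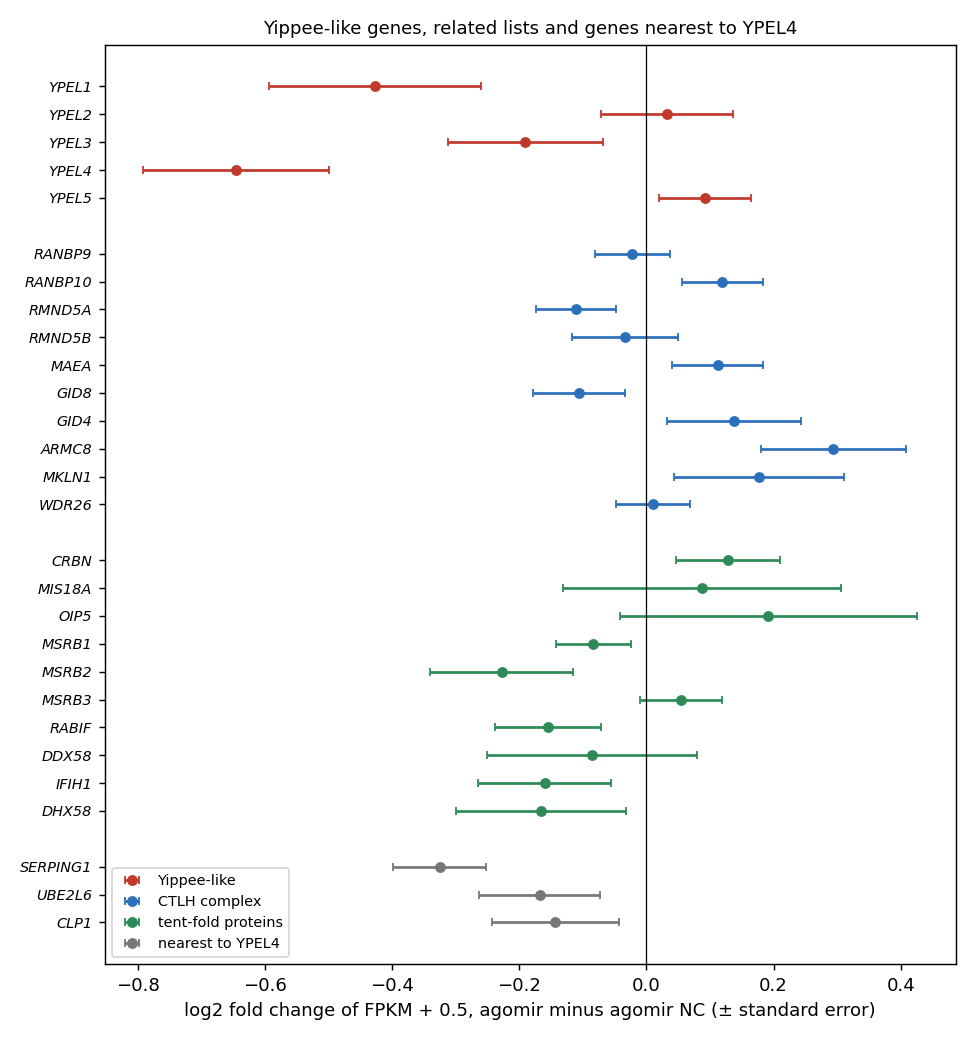
Log2 fold change of FPKM + 0.5, agomir minus agomir NC (horizontal axis, bars of 1 standard error, 6 libraries), for the genes tested of the Yippee-like family, the CTLH complex, the tent-fold list and the genes nearest to *YPEL4*. *YPEL4* (-0.65) and *YPEL1* (-0.43) lie farthest to the left, and *ARMC8* (0.29) farthest to the right.

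Because *YPEL3* is known as a p53 target, 18 further p53 targets were read from the same fit. All were tested, and limma called none at an adjusted p under 0.05, 1 higher and none lower at an unadjusted p under 0.05, beside 6.63% higher and 4.31% lower over all genes tested. The median log2 fold change was 0.014, beside 0.013 over all genes tested. *CCNG1*, *PHLDA3* and *CDKN1A* were the most abundant. *CCNG1*, which encodes cyclin G1, was at 161 ± 8.50 against 150.4 ± 11.6 FPKM (SD, n = 3 each). *PHLDA3*, an inhibitor of AKT signaling, was at 121 ± 0.585 against 123 ± 7.53 FPKM, and *CDKN1A*, the p21 inhibitor of cyclin-dependent kinases, at 81.7 ± 2.22 against 81.0 ± 2.08 FPKM (SD, n = 3 each). The gene with the unadjusted call was *ZMAT3*, an RNA-binding protein, at 23.5 ± 1.21 with the agomir against 21.2 ± 0.236 FPKM after the control (SD, n = 3 each), with a log2 difference of 0.14 (standard error 0.054, limma's adjusted p = 0.399). *ZMAT3* had groups that did not overlap, as did *SESN2*, at 22.0 ± 0.235 against 23.6 ± 1.23 FPKM, which lay lower with the agomir, beside 10.9% of all genes not overlapping and higher and 6.36% not overlapping and lower.

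The genome context of the members was taken from the RefSeq gene table of ARS-UCD2.0, which is not the build ARS-UCD1.2 named in the submitters' processing notes, so it was used for neighbours only. The 5 genes lie on 5 chromosomes, *YPEL1* on 17, *YPEL2* on 19, *YPEL3* on 25, *YPEL4* on 15 and *YPEL5* on 11. The related phosphodiesterase genes *GDPD1* and *GDPD3* are the nearest before *YPEL2* and *YPEL3*. *GDPD1* was at 0.868 ± 0.303 against 0.930 ± 0.134 FPKM and *GDPD3* at 1.22 ± 0.271 against 1.08 ± 0.143 FPKM (SD, n = 3 each, agomir first), with overlapping groups. Of the 20 nearest genes, 2 on each side of each member, 15 passed the filter, and their median log2 fold change was -0.054.

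Around *YPEL4*, the span of *CLP1*, an RNA kinase gene, overlaps that of *YPEL4* in the table. Whether strand was used in counting is not stated, so it is not known whether fragments from a shared stretch were assigned to the right gene. The overlap was not checked in the build named for the deposited values. *CLP1* gave 3.52, 4.11 and 4.51 FPKM in agomir replicates 1, 2 and 3 and 4.40, 4.75 and 4.36 FPKM in agomir NC replicates 1, 2 and 3. The groups of *CLP1* overlapped, and its log2 fold change was -0.14 (standard error 0.10, limma's adjusted p = 0.636). *SERPING1*, which encodes the C1 inhibitor of complement and is the nearest gene before *YPEL4*, gave 27.0, 26.0 and 24.1 FPKM in agomir replicates 1, 2 and 3 and 29.1, 33.6 and 34.5 FPKM in the same-numbered agomir NC replicates. Its groups did not overlap, and it was the 1 lower gene of this kind among the 15 tested neighbours, beside 6.36% of all genes tested. The log2 fold change of *SERPING1* was -0.33 (standard error 0.073, limma's unadjusted p = 0.00133, adjusted p = 0.226), and it was also the 1 neighbour of the 15 that was lower at an unadjusted p under 0.05, beside 4.31% of all genes. *UBE2L6*, the next gene, was at 7.58 ± 0.489 against 8.61 ± 1.05 FPKM (SD, n = 3 each). Log2 fold changes were below 0 for all 3 tested neighbours of *YPEL4*, for 11 of the 15 tested neighbours of all members and for 5582 of the 12422 genes tested. The 11 include those 3, and *CLP1* overlaps *YPEL4*, whose difference chose the family. These counts are therefore a description. The part of *CLP1* in the values of *YPEL4* was not tested. Of the tested neighbours of the other members, *PPM1F*, near *YPEL1*, was the 1 higher gene of the 15 with groups that did not overlap, beside 10.9% of all genes, at 11.6 ± 0.327 with the agomir against 10.9 ± 0.139 FPKM after the control (SD, n = 3 each).

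Genes with the pattern most like that of each member were found by the Pearson correlation of log2(FPKM + 0.5) over the 6 libraries. With 6 points and 12421 genes to choose from, high values are easily found, and they are given as a description. *P3H1*, *PDGFA* and *MARVELD1* were most like *YPEL4*, each at 0.989. *PDGFA*, a growth factor gene, was at 0.505 to 0.577 FPKM in the agomir libraries and 0.731 to 0.819 FPKM in the agomir NC libraries. *P3H1*, a collagen-modifying enzyme, was far more abundant, from 65.4 to 66.4 FPKM with the agomir and 67.8 to 68.7 FPKM with the agomir NC. *RND2*, at 0.994, *ZNF389*, at 0.985, and *CHST11*, at 0.983, were most like *YPEL1*. *ZNF389* was listed at 0 FPKM in agomir replicates 2 and 3 and at 0.465 FPKM in agomir replicate 1, so its correlation rests in part on values at the floor. *RND2* shared the pattern in which agomir replicate 1, at 1.29 FPKM, lay near the agomir NC libraries, at 1.35 to 1.40 FPKM, and agomir replicates 2 and 3 lay lower, at 0.770 and 0.775 FPKM. *STBD1* (0.991), *E2F3* (0.973) and *UNC119* (0.972) were most like *YPEL3*. *SLC25A26* (0.997), *FAM199X* (0.984) and *KIAA0556* (0.977) were most like *YPEL2*, and *MRPS6* (0.996), *MIEF2* (0.983) and *STRN3* (0.980) most like *YPEL5*. No gene appeared for more than 1 member. A correlation of at least 0.9 was reached by 0.805% of the other genes for *YPEL4* and by between 0.499% and 0.660% for the other members. The pattern of *YPEL4* holds the group difference that chose it, so nothing is read from its share.

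Markers of other cell types were read beside these values. Of the 4 endothelial genes, *PECAM1*, *CDH5* and *KDR* were under 0.2 FPKM in every library, and the most abundant, *VWF*, was at 3.39 ± 0.356 against 3.38 ± 0.319 FPKM (SD, n = 3 each). Their summed level was 3.94, 3.14 and 3.67 FPKM in agomir replicates 1, 2 and 3 and 3.68, 3.97 and 3.35 FPKM in agomir NC replicates 1, 2 and 3. The 4 immune genes summed to 7.26 ± 0.579 against 7.29 ± 0.267 FPKM (SD, n = 3 each), mostly *CD14*, with *PTPRC* at or below 0.119 FPKM. The 6 erythroid genes summed to at most 0.0998 FPKM in any library, with *HBB* and *SLC4A1* listed at 0 in all 6. The 4 neuronal genes summed to 3.74 ± 0.598 against 3.89 ± 0.220 FPKM (SD, n = 3 each), nearly all of it *TUBB3*, with *RBFOX3* listed at 0. The 4 muscle genes summed to at most 0.479 FPKM, with *MYOD1* and *MYOG* listed at 0. The groups overlapped in each of these 5 sums. Among the 9 fibroblast and preadipocyte markers, 3 had groups that did not overlap, all lower with the agomir, namely *DCN*, *ENG* and *NT5E*, and 2 of them, *DCN* and *NT5E*, were lower at an unadjusted p under 0.05 in limma. Over all genes tested, 6.36% did not overlap and were lower, and 4.31% were lower at that p. *NT5E*, a mesenchymal surface enzyme, was at 73.2 ± 3.73 FPKM with the agomir against 87.2 ± 3.56 FPKM after the control (SD, n = 3 each), with a log2 difference of -0.25 (standard error 0.051, limma's adjusted p = 0.209). The sum of the 9 genes, of which *COL1A1* was the most abundant, was 16310 ± 441 against 16190 ± 474 FPKM (SD, n = 3 each). The part of these markers in the values of *YPEL4* and *YPEL1* was not tested.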

How the data were processed

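The values used were the authors' deposited FPKM for 3 agomir and 3 agomir NC libraries. The submitters' processing notes name fastp, HISAT2, StringTie and the build ARS-UCD1.2, without versions or the annotation. FPKM holds no read numbers, so depth is unknown and counting error could not be estimated. Summed FPKM ran from 365977 to 379361 per library.

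All 12422 genes averaging 0.5 FPKM or more were put on the log2(FPKM + 0.5) scale (pseudocount 0.5), and the groups were compared across all genes with limma (version 3.58.1, R 4.3.3), with a variance trend, two-sided, and Benjamini-Hochberg adjustment over these genes. The fit was tested on simulated data. Single genes were also compared over the 20 labelings of the libraries by an exact permutation test.

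The members, lists and tests were chosen with earlier results of these data known. The CTLH, tent-fold and p53 lists follow gene function. All genes of the first 2 lists, p53 targets with an unadjusted p under 0.05 or among the 3 most abundant, the nearest 2 genes on each side, the markers and the 3 most similar genes were open to naming, and a few of these are not reported here. *SESN2* was named after its values were seen. Alternatives changed the pseudocount (0.1 or 1), the filter (none, or 1 FPKM), the scaling (median ratios or quantiles) and the model (array weights, a replicate block, or the variance trend dropped), or left out each library in turn. For gene neighbours, the ARS-UCD2.0 gene table of RefSeq was used.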

Additional observations from a re-analysis of the deposited data

How the results depend on the processing

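The direction of *YPEL4* was fixed by its choice, and its values are a description. Its log2 fold change was -0.85 with a pseudocount of 0.1 and -0.92 as a ratio of mean FPKM without a pseudocount, an alternative chosen after the data were examined, and lay between -0.74 and -0.50 in the other settings. By construction, a smaller pseudocount widens the difference of a low gene. *YPEL1* was at -0.67 without a pseudocount and was not tested when a mean of 1 FPKM was required. *YPEL1*, *YPEL2*, *YPEL3* and *YPEL5* kept their directions in every setting that gave them a value. In those with a test, which leave out the ratio without a pseudocount, limma's adjusted p lay between 0.296 and 0.991. The order of the 5 mean levels was the same under all 9 alternatives tried for it.

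At an adjusted p under 0.05 limma called 1 gene, but 0 when the filter or the variance trend was dropped or the replicate block added, where 1604, 1249 and 1260 genes had an unadjusted p under 0.05. It ranged from 0, without agomir replicate 1 or agomir NC replicate 2 (1220 and 1189 genes at an unadjusted p under 0.05), to 2, without agomir NC replicate 3. The number past an unadjusted p of 0.05 and a fold of 1.5 was 34. It was 112 with a pseudocount of 0.1, 15 with a pseudocount of 1, 79 without a filter and 16 when a mean of 1 FPKM was required, and ranged from 55 to 71 when any 1 of the 6 libraries was left out (55 without agomir replicate 2, 71 without agomir replicate 1).

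With 1 library left out, the median log2 fold change ranged from 0.015 (without agomir replicate 1) to 0.069 for the CTLH list, from -0.13 to -0.014 (without agomir NC replicate 3) for the tent-fold list, from -0.023 (without agomir NC replicate 2) to 0.056 (without agomir NC replicate 3) for the p53 targets, and from -0.080 to -0.0095 (without agomir replicate 1) for the nearest genes. The cause was not tested. After subtracting group means, agomir and agomir NC libraries of equal number had correlations of -0.051, 0.053 and 0.039, giving no sign that numbers pair them. With the replicate block, the count past both lines was 41. Because depth is not known, the counting error of *YPEL1* and *YPEL4* near 1 FPKM cannot be given.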
